A study of Mus musculus with 56 samples.

Results

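Hippocampal RNA of Fmr1 knockout (KO) animals was compared with that of wild-type (WT) animals, in 3 libraries of each genotype, which are 6 of the 56 mouse samples of the series. The members are those 6 libraries, taken by their tissue and genotype labels, and every gene of the deposited count table for brain, which lists 15777 genes. Of these, 14843 had enough counts to be tested. Both groups are whole hippocampus homogenised as frozen powder, from which poly(A) RNA was made into strand-specific libraries. The labels give tissue and genotype only, with no age, sex, strain or KO allele, and do not say whether each library is a separate animal, so p-values measure the spread between these libraries, which may be technical. The other brain regions of the series, cortex and cerebellum, also have 3 WT and 3 Fmr1 KO libraries each and serve as the comparison for single results.

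Fmr1 encodes FMRP, an RNA-binding protein that associates with ribosomes and with neuronal messenger RNAs, many of which code for synaptic proteins. Loss of FMRP causes fragile X syndrome in humans, and the hippocampus of the knockout mouse is a standard preparation for work on synaptic plasticity that depends on metabotropic glutamate receptors. Hippocampal tissue holds pyramidal and granule neurons, interneurons, astrocytes, microglia and vessels, as well as oligodendrocytes, the cells that wrap axons in myelin. It borders the lateral ventricle, which is lined by ciliated ependyma and holds the choroid plexus, the epithelium that secretes cerebrospinal fluid.

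Library totals, in 1e+06 counts, lay between 26.6 (KO 1) and 41.4 (WT 3), with 15625 to 15698 genes detected and 3.06% to 3.90% of counts in the 10 most abundant genes. The libraries WT 1 and KO 2 stood apart from the other 4 on the component that carried most of the variance (described with its genes further on). Each genotype therefore had 1 library on that side, and the main counts and some of the list medians are also given without them.

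Fmr1 messenger RNA was reduced but still counted in the KO libraries. In CPM (counts scaled to 1e+06 per library with the TMM factor), Fmr1 (chromosome X, 68678541 to 68717963 in GRCm38) measured 94.9, 90.4 and 85.0 in WT and 24.0, 24.0 and 24.5 in KO. The groups did not overlap, and the KO level was 26.8% of the WT level. The log2 fold change was -1.90 ± 0.05 (SE, n = 3 per group; edgeR quasi-likelihood test, Benjamini-Hochberg adjusted p = 8.11e-06). The other members of the FMRP family list, which are the FMRP paralogues Fxr1 and Fxr2 and the FMRP partners Cyfip1, Cyfip2 and Nufip1, did not pass the test. Fxr1 had a log2 fold change of 0.07 ± 0.05. Among 30 tested genes within 5 Mb of Fmr1 none was called, 4 had an unadjusted p under 0.05, and the smallest adjusted p was 0.303.

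Across all genes few passed the test, and nearly all of those were lower in KO. At an adjusted p under 0.05, 31 genes were called (0.209% of those tested). They were 29 lower genes (0.195%) and 2 higher genes (0.0135%). At an unadjusted p under 0.05 the directions were even, with 944 genes higher (6.36%) and 908 lower (6.12%). The values of all 31 called genes did not overlap between genotypes, against 9.35% of tested genes not overlapping and lower in KO and 9.48% not overlapping and higher. The 28 lower genes besides Fmr1 had log2 fold changes from -0.65 to -0.30, and the adjusted p of all called genes besides Fmr1 lay between 0.0331 and 0.0443. DESeq2 called all 31 genes as well, among 259, of which 116 were higher (1.13%) and 143 lower (1.39%). Of the 31, 24 also had an adjusted p under 0.05 in the authors' deposited table, among 66 higher and 116 lower genes.

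The count of called genes rested on single libraries. Without any 1 of WT 1, WT 2, WT 3, KO 1 or KO 2 only Fmr1 was called, and without KO 3 there were 21 calls. Without WT 1 and KO 2 together only Fmr1 was called. In those 4 libraries all 29 lower genes were again lower in KO, and the largest unadjusted p of the 31 was 0.00134. With the split between these libraries as a covariate the count was 107, of which 84 were lower (0.566%) and 23 higher (0.155%), and they included all 31. In 1 fit of all 18 brain libraries 32 genes were called, 9 higher and 23 lower, of which 10 were among the 31.

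The 2 genes that rose were Etv5 and Hapln1. Etv5, a transcription factor of the PEA3 group that is induced by ERK signalling, measured 55.8, 52.0 and 51.7 CPM in the WT libraries and 92.4, 88.0 and 80.0 CPM in KO. Every KO library lay above every WT library, and the KO level was 163% of WT, a log2 fold change of 0.71 ± 0.06 (adjusted p = 0.0331). In cortex the log2 fold change of Etv5 was 0.59 ± 0.11 (adjusted p = 0.0668) and in cerebellum 0.97 ± 0.07 (adjusted p = 4.54e-05). Etv5 was the only called member of 15 tested members of the list of ERK feedback genes and PEA3 factors, whose median log2 fold change was 0.00. Dusp6, a phosphatase that switches off ERK, had a log2 fold change of 0.25 ± 0.08 (adjusted p = 0.272), and Spry2, an inhibitor of receptor tyrosine kinase signalling, one of 0.15 ± 0.06 (adjusted p = 0.399). Hapln1, a link protein that anchors hyaluronan in perineuronal nets, measured 44.2, 41.8 and 39.8 CPM in the WT libraries and 58.7, 59.5 and 54.7 CPM in KO. Its groups did not overlap either (log2 fold change 0.46 ± 0.06, adjusted p = 0.0410). Other parts of that matrix are the lecticans Ncan (0.25 ± 0.04, adjusted p = 0.0699) and Bcan (0.20 ± 0.04, adjusted p = 0.159), which did not pass in edgeR. Both passed with DESeq2, and Ncan also passed with the split covariate and in the fit of all 18 brain libraries.

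Besides Fmr1, the lower genes of largest change were Syt16 and Afap1l2. Syt16, a synaptotagmin family member, measured 73.3, 63.6 and 62.3 CPM in the WT libraries and 44.4, 43.1 and 39.2 CPM in KO. Afap1l2, an adaptor protein of the actin filament-associated family, measured 14.7, 14.4 and 14.3 CPM in the WT libraries and 9.59, 8.98 and 10.3 CPM in KO. Neither gene's groups overlapped, and KO levels were 63.6% and 66.6% of WT. Syt16 had a log2 fold change of -0.65 ± 0.08 in hippocampus (adjusted p = 0.0410), -0.58 ± 0.08 in cortex (adjusted p = 0.0668) and -0.90 ± 0.13 in cerebellum (adjusted p = 0.0169). Afap1l2 had -0.58 ± 0.08 in hippocampus (adjusted p = 0.0424), -0.67 ± 0.14 in cortex (adjusted p = 0.0722) and -0.37 ± 0.05 in cerebellum (adjusted p = 0.00591). Of the 29 lower genes 26 were also lower in cortex and 14 in cerebellum. Over all tested genes, 7304 of 14531 were lower in cortex and 6820 of 14234 in cerebellum. Of the 31 called genes, 1 was called in cortex and 4 in cerebellum at an adjusted p under 0.05. Over all these genes, 3 of 14531 were called in cortex and 30 of 14234 in cerebellum.

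**Figure D1:**
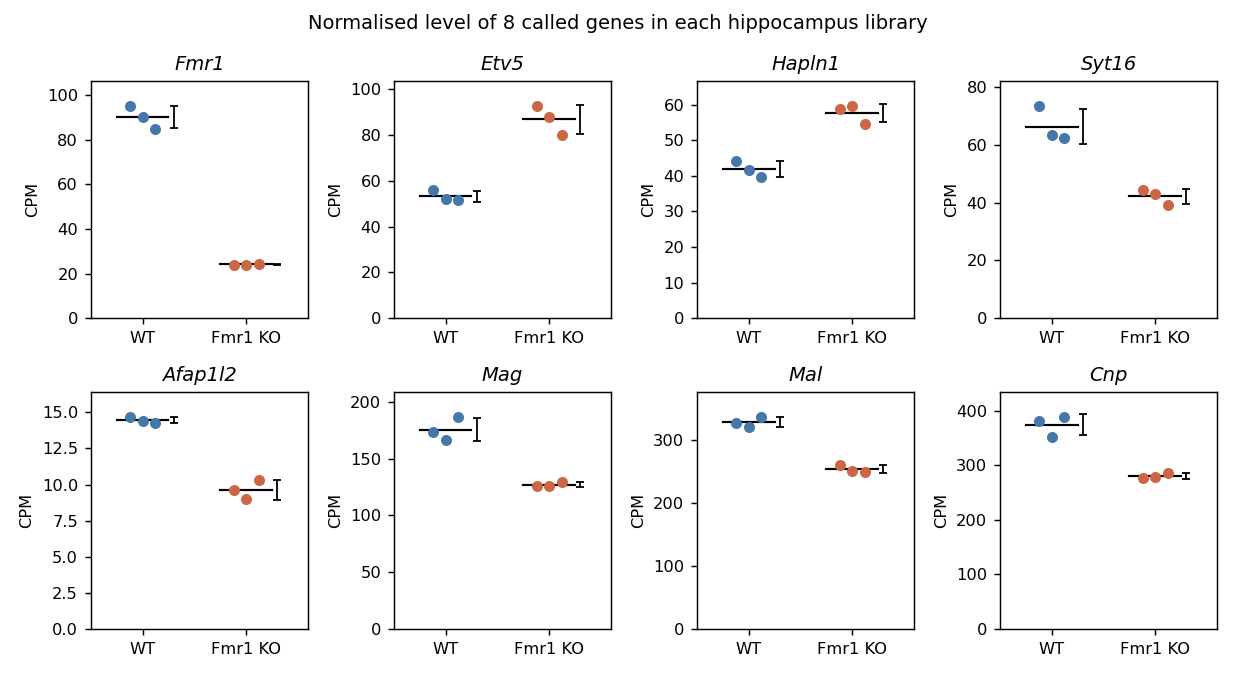
Normalised level in CPM of 8 called genes, 1 panel each with the axis from 0. Points are the 3 WT and 3 Fmr1 KO hippocampus libraries, lines their means and bars their SD (n = 3). No KO point of Fmr1, Syt16, Afap1l2, Mag, Mal or Cnp reaches a WT point, and every KO point of Etv5 and Hapln1 is above the WT points.

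Genes of mature oligodendrocytes were lower in KO as a group. The list holds 13 genes for myelin proteins and for enzymes and factors of myelinating cells. All 13 were tested, and 5 fell: Mal, Mag, Cnp, Ermn and Mog (0.195% of all tested genes fell). The other 8, among them Mobp, Cldn11, Myrf, Aspa, Opalin, Ugt8a and Mbp, had negative log2 fold changes with adjusted p up to 0.180. All 13 had an unadjusted p of at most 0.00240, and in all 13 no KO library reached a WT library (9.35% of all tested genes). The median log2 fold change was -0.39, with a range from -0.50 (Aspa) to -0.27 (Ugt8a), beside 0.00 over all tested genes. The list was chosen with results of these libraries known, so its count is not independent evidence of its direction. In this bulk tissue, fewer oligodendrocytes and less RNA per oligodendrocyte cannot be told apart.

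Mag, the myelin-associated glycoprotein of the innermost myelin wrap, measured 173, 167 and 187 CPM in the WT libraries and 126, 126 and 129 CPM in KO. The KO libraries lay close together and all below WT (log2 fold change -0.46 ± 0.05, adjusted p = 0.0410). Cnp, a phosphodiesterase of non-compact myelin, measured 382, 352 and 388 CPM in the WT libraries and 277, 278 and 286 CPM in KO (-0.42 ± 0.05, adjusted p = 0.0410). Mal, a proteolipid that sorts myelin membrane, measured 328, 321 and 336 CPM in the WT libraries and 261, 251 and 249 CPM in KO (-0.37 ± 0.04, adjusted p = 0.0410). Both were separated between genotypes in every library. Per transcript length, in the authors' TPM, which scale for length, WT means were 434 TPM for Cnp, 329 TPM for Mal and 204 TPM for Mag, so Cnp had the highest level of these genes. Mbp, which codes for a main protein of compact myelin, was at -0.29 ± 0.07 (adjusted p = 0.180).

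Summed over the list, the level was 6501, 6185 and 6627 CPM in the WT libraries and 5051, 5052 and 5233 CPM in KO. The KO libraries were all below the WT libraries, at 79.4% of the WT mean. The mean level of the list did not move with the split of libraries: the mean sum of WT 2, WT 3, KO 1 and KO 3 over that of WT 1 and KO 2 was 0.9996. On each side of the split KO lay below WT, with 6501 CPM in WT 1 and 5052 CPM in KO 2. Without WT 1 and KO 2 the median was -0.38 and all 13 genes kept an unadjusted p under 0.05. With the split as a covariate edgeR called 12 of the 13 lower (0.566% of all tested genes were called lower in that fit), and DESeq2 called 13 (1.39%). In the fit of all 18 brain libraries 0 of the 13 were called (0.148% of genes were called lower), with adjusted p up to 0.502 and none under the threshold. With replicate number as a block 0 were called as well (0.00674%), with adjusted p from 0.107 to 0.228. The 5 calls were likewise lost without any 1 of WT 1, WT 2, WT 3, KO 1 or KO 2, and 3 genes of the list were called without KO 3. All 13 log2 fold changes stayed negative in each of these fits.

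By its median the same list was not lower in the other brain regions. In cortex its median log2 fold change was -0.00, with 7 of 13 genes negative, and in cerebellum 0.09, with 1 of 13 negative. Cortex sums were 5690, 7045 and 7107 CPM in the WT libraries and 8144, 5450 and 5669 CPM in KO. KO 2 and KO 3 of cortex lay below every WT library, so the overlap in cortex rested on KO 1. Cortex KO 1 also had the highest striatal marker sum, 2184 CPM against 452 to 1538 CPM, and its bearing on the list was not tested. Cerebellum sums were 5978, 5661 and 6822 CPM in the WT libraries and 6691, 6477 and 6806 CPM in KO. The groups overlapped in both regions. The test of the difference between regions reached an unadjusted p under 0.05 for 5 of the 13 genes against cortex (10.1% of all genes did) and for 10 of 13 against cerebellum (5.31%). None of the 13 passed after adjustment, with smallest adjusted p of 0.391 and 0.699 (over all genes 0 passed against cortex and 1, or 0.00645%, against cerebellum), so a difference of the genotype effect between regions was not shown for a single gene of the list.

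**Figure D2:**
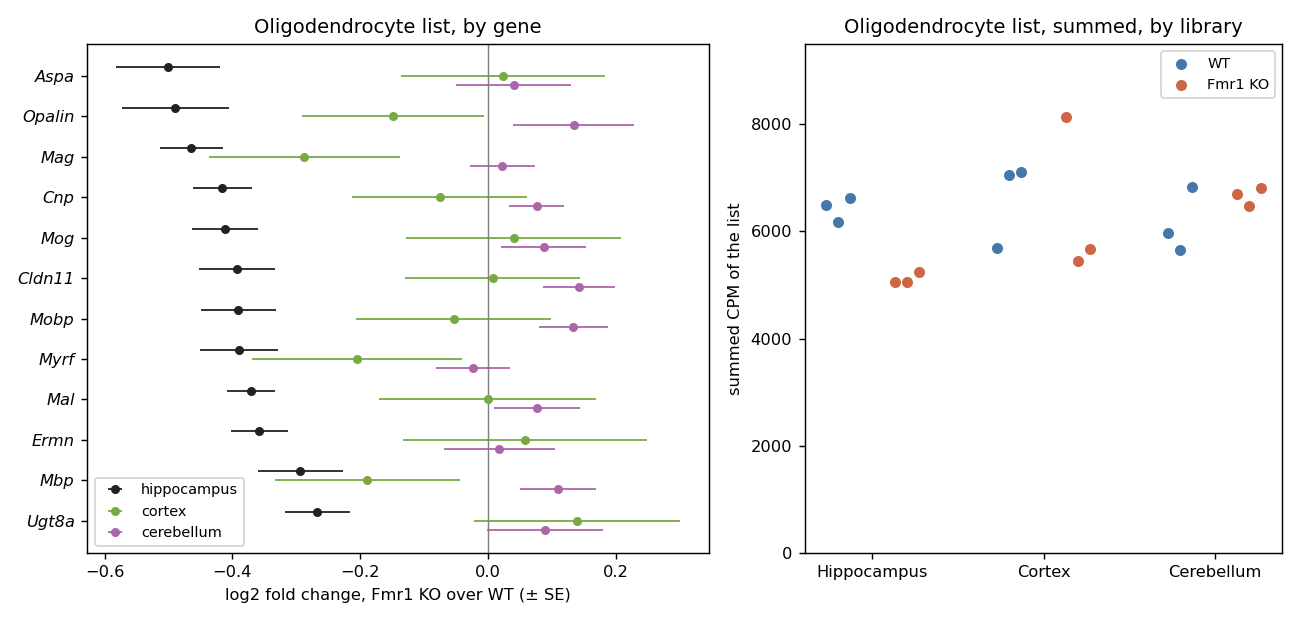
Left, log2 fold change of KO over WT for 12 of the 13 genes in hippocampus, cortex and cerebellum, with bars of 1 SE. Right, summed CPM of the list in each library by region and genotype. In hippocampus all 12 points lie between -0.50 and -0.27 and the 3 KO sums (5051 to 5233 CPM) are below the 3 WT sums (6185 to 6627 CPM), whereas the groups overlap in the other regions.

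Markers of oligodendrocyte precursors were closer to WT. Of 10 tested members 9 had negative log2 fold changes, with a median of -0.08 and 0 called (DESeq2 called 1), and 2 had an unadjusted p under 0.05. These were Enpp6, which marks newly forming oligodendrocytes, and Sox10, the transcription factor of the whole lineage. Enpp6 was at -0.49 ± 0.08 (adjusted p = 0.0803) and Sox10 at -0.21 ± 0.08 (adjusted p = 0.338). The growth factor receptor Pdgfra, a defining precursor gene, was at 79.8 ± 2.79 CPM (SD, n = 3) in WT and 76.8 ± 2.26 CPM (SD, n = 3) in KO, a log2 fold change of -0.05 ± 0.05.

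Of the other lower genes, 8 are described here. Bcas1, a protein of myelinating oligodendrocytes, measured 190, 179 and 186 CPM in the WT libraries and 142, 133 and 148 CPM in KO. Cntn2, a contactin at axon-glia contacts, had a log2 fold change of -0.38 ± 0.05 (adjusted p = 0.0424). Apod, an apolipoprotein of glia, was at -0.41 ± 0.05 (adjusted p = 0.0410). Vim, the intermediate filament vimentin, was at -0.42 ± 0.06 (adjusted p = 0.0433). Gatm, which makes the precursor of creatine, was at -0.37 ± 0.05 (adjusted p = 0.0425), and Ndrg1, a gene whose loss causes a demyelinating neuropathy, at -0.36 ± 0.04 (adjusted p = 0.0410). Fbxo32, a ubiquitin ligase subunit known from muscle atrophy, was at -0.52 ± 0.06 (adjusted p = 0.0410), and Plxnb3, a semaphorin receptor, at -0.47 ± 0.06 (adjusted p = 0.0433). Of these 8 genes none is on the oligodendrocyte list, which is short, so this does not place them outside that cell type. Also called lower were Plekhb1, Pkp4, Csrp1, Slc44a1, Rassf2, Nkain1, Tmem63a, Tmem88b, Pgm5, Carhsp1, Sept4, Galnt6 and Pacs2. Which cell types carry these genes was not tested.

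Sequence upstream of the lower genes is shown for Mag, Cnp and Mal because these genes of one list fell together. The windows run from -250 to -51 bases of the RefSeq transcription start and overlap no exon. Capitals mark the hexamers ACAAAG or ACAATG, the core letters that SOX factors bind, searched on both strands (CTTTGT and CATTGT on the other). Genes and hexamers were chosen after the expression values were seen, and sequences are from RefSeq, build GRCm38.p6.
Mag (chr7:30914914-30915113, minus strand): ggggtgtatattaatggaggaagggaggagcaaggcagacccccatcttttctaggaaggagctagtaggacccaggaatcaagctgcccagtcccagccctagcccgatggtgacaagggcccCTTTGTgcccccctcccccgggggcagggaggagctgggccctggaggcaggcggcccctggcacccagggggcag
Cnp (chr11:100574689-100574888, plus strand): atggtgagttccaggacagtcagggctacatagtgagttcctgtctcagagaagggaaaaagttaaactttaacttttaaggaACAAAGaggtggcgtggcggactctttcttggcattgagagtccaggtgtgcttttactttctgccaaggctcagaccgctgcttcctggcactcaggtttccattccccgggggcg
Mal (chr2:127656746-127656945, minus strand): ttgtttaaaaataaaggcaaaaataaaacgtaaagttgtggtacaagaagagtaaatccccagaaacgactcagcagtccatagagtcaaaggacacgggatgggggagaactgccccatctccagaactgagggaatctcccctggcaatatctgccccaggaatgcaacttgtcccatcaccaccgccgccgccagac
Mag has 1 hexamer, at -126, Cnp has 1, at -167, and Mal has 0 in this window. In the 250 bases before the start, 10 of the 25 called lower genes with a promoter entry held either hexamer (40%), as did 5 of 10 genes of the oligodendrocyte list (50%). Over all tested genes with an entry it was 1899 of 11149 (17%). The 2 hexamers cannot overlap at the same position of a strand, and a match is a description of letters only.

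The remaining cell type lists had no called gene in edgeR, and DESeq2 called between 0 and 2 in each. Astrocyte markers summed to 7956, 7974 and 7698 CPM in the WT libraries and 8643, 8744 and 8189 CPM in KO, so the KO libraries lay above WT. The glutamate transporter Slc1a2 carried this difference, at 4340 ± 191 CPM in WT and 5026 ± 342 CPM in KO (SD, n = 3), a log2 fold change of 0.21 ± 0.09 (adjusted p = 0.394). The other 11 genes summed to 3560, 3480 and 3552 CPM in the WT libraries and 3528, 3464 and 3531 CPM in KO, and the groups overlapped. Among them Gfap, the intermediate filament of astrocytes, was at 463 ± 23.1 CPM in WT and 424 ± 8.90 CPM in KO (SD, n = 3). The list's median log2 fold change was 0.07, with 8 of 12 positive and 2 called higher by DESeq2 (1.13% of all genes). Microglia (median -0.01 over 12 genes), pan-neuronal genes (0.06 over 10) and interneuron genes (0.09 over 15) had medians near 0.

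Among the principal neurons the medians were 0.04 for CA1 markers, 0.13 for CA3 markers and 0.00 for dentate granule markers. Without WT 1 and KO 2 they were 0.15, 0.06 and 0.06, so the order of CA1 and CA3 rested on those libraries. All 7 CA2 markers were negative, with a median of -0.14 (-0.23 without WT 1 and KO 2) and 1 at an unadjusted p under 0.05. Among markers of neighbouring tissue, those of thalamus and ependyma leaned lower. Neocortical, meningeal and striatal medians were nearer 0, at -0.00, -0.01 and -0.08 (0.08, -0.04 and 0.03 without WT 1 and KO 2). All 9 tested thalamic markers were negative, with a median of -0.27 and 3 at an unadjusted p under 0.05 (6.12% of all genes were lower at that level). Thalamic sums were 224, 192 and 216 CPM in WT against 189, 174 and 171 CPM in KO. All 10 ependymal markers were negative, with a median of -0.59 (-0.54 without WT 1 and KO 2) and 4 at that level. The ependymal sums were 41.5, 56.1 and 70.0 CPM in the WT libraries and 33.6, 25.1 and 60.8 CPM in KO, so the groups overlapped. Thalamic and ependymal means were thus lower in KO beside the oligodendrocyte genes, and their part in that result was not tested. Choroid plexus markers had a median of -0.10 and 0 of 13 at an unadjusted p under 0.05, with sums overlapping between genotypes.

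In endothelium, the glucose transporter Slc2a1 of the blood-brain barrier missed the threshold narrowly. It measured 90.1, 87.6 and 91.7 CPM in the WT libraries and 74.1, 67.6 and 70.9 CPM in KO (-0.34 ± 0.05, adjusted p = 0.0515). Its groups did not overlap, and it passed with DESeq2, with the split covariate and in the fit of all 18 brain libraries. The vascular growth factor receptor Flt1 was at -0.02 ± 0.08, and the list's 12 genes had a median of -0.04.

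Synaptic and channel genes were nearly centred on 0. Of the well-known FMRP target messenger RNAs, 61 were tested, 0 were called, 4 were higher and 4 lower at an unadjusted p under 0.05, and the median was -0.00 (in cortex -0.11, in cerebellum -0.02). DESeq2 called 3 of them higher and 1 lower, against 1.13% and 1.39% of all genes. Medians were 0.07 for the metabotropic glutamate receptor pathway, 0.04 for ionotropic glutamate receptors, 0.01 for postsynaptic scaffolds, 0.02 for synaptic vesicle release and 0.07 for GABA receptors and synthesis. For sodium and calcium channels the median was 0.05, and for potassium and HCN channels -0.02. Of the 62 potassium and HCN genes, 7 were lower and 1 higher at an unadjusted p under 0.05 (6.12% and 6.36% of all genes). Without WT 1 and KO 2 the metabotropic median was 0.03 and the ionotropic median -0.01. In the main edgeR fit Syt16 was the only called gene among these lists. DESeq2 called 1 gene higher in each of the metabotropic, ionotropic and GABA lists and 2 higher among sodium and calcium channels. It called 2 lower for synaptic vesicle release. Scn3b, an auxiliary sodium channel subunit, measured 317, 341 and 338 CPM in the WT libraries and 397, 399 and 381 CPM in KO. Its groups did not overlap, yet it did not pass in the main edgeR fit (0.24 ± 0.04, adjusted p = 0.0925). Scn3b did pass with DESeq2 and with the split covariate. Homer1, the scaffold that couples metabotropic receptors to calcium stores, was at 0.23 ± 0.06 (adjusted p = 0.228), and Gabra2, a GABA-A receptor subunit, at 0.25 ± 0.06 (adjusted p = 0.179). With DESeq2 both Homer1 and Gabra2 passed.

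Splicing factor genes leaned higher without a call in edgeR. Of 68 tested members 55 were positive, with a median of 0.08, and 21 were higher and 1 lower at an unadjusted p under 0.05, against 6.36% and 6.12% of all genes. DESeq2 called 7 higher (1.13% of genes). The summed level was 10635, 10803 and 10554 CPM in the WT libraries and 11131, 11362 and 11278 CPM in KO, so the KO libraries lay above WT. Tia1, an RNA-binding protein of stress granules and exon choice, was at 0.25 ± 0.06 (adjusted p = 0.181), Celf5 at 0.23 ± 0.05 (adjusted p = 0.164) and the neuronal exon regulator Rbfox1 at 0.20 ± 0.05 (adjusted p = 0.181). The median was 0.06 without WT 1 and KO 2. In cortex the list's median was 0.13 and in cerebellum 0.01.

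Ribosomal protein genes and amino acid response genes also had no call in edgeR. Of 79 cytosolic ribosomal protein genes 67 were negative, with a median of -0.07 (-0.05 without WT 1 and KO 2). At an unadjusted p under 0.05, 6 were lower and 2 higher, against 6.12% and 6.36% of all genes, and DESeq2 called 4 lower (1.39% of all genes). The summed level was 11716, 10255 and 11634 CPM in the WT libraries and 10640, 10766 and 10804 CPM in KO, so the groups overlapped and the lowest library was WT 2. Their short, often duplicated transcripts make single values uncertain. Rplp2 was at -0.30 ± 0.07 (adjusted p = 0.181). In cortex and cerebellum this list's median was 0.03 in each. Of 32 tested genes of the ATF4 and amino acid response, which makes serine and other amino acids under stress, 26 were negative and 11 were lower at an unadjusted p under 0.05 (6.12% of all genes), with a median of -0.07 and 0 calls in edgeR and DESeq2. Phgdh, the first enzyme of serine synthesis, was at -0.21 ± 0.06 (adjusted p = 0.231), and cortex had a median of -0.14.

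Stress and hormone response lists differed in direction and had no called gene in edgeR. Of 29 interferon response genes 25 were negative, with a median of -0.16 and 4 lower at an unadjusted p under 0.05 (6.12% of all genes). The class I antigen gene H2-D1 was at -0.26 ± 0.06 (adjusted p = 0.210). Of 20 glucocorticoid-responsive genes 6 were lower and 1 was higher at an unadjusted p under 0.05 (6.12% and 6.36% of all genes). DESeq2 called 2 of these lower (1.39% of all genes). Plin4, a lipid droplet protein, measured 10.7, 13.0 and 15.4 CPM in the WT libraries and 6.26, 4.68 and 7.33 CPM in KO (-1.10 ± 0.19, adjusted p = 0.0818), with no overlap. The metal-binding Mt1 was at -0.45 ± 0.09 (adjusted p = 0.134). Plin4 and Mt1 both passed with DESeq2, with the split covariate and in the fit of all 18 brain libraries. Of 38 chaperone genes 27 were positive, 7 of them at an unadjusted p under 0.05 (6.36% of all genes). Xbp1, a transcription factor of the unfolded protein response, was at 0.25 ± 0.05 (adjusted p = 0.148). It passed with DESeq2 and in the fit of all 18 brain libraries. The clock repressor Nr1d1 was at -0.28 ± 0.05 (adjusted p = 0.0825) and passed with DESeq2 and with the split covariate. Immediate early genes had a median of 0.12 (0.08 without WT 1 and KO 2), with 21 of 26 positive.

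**Figure D3:**
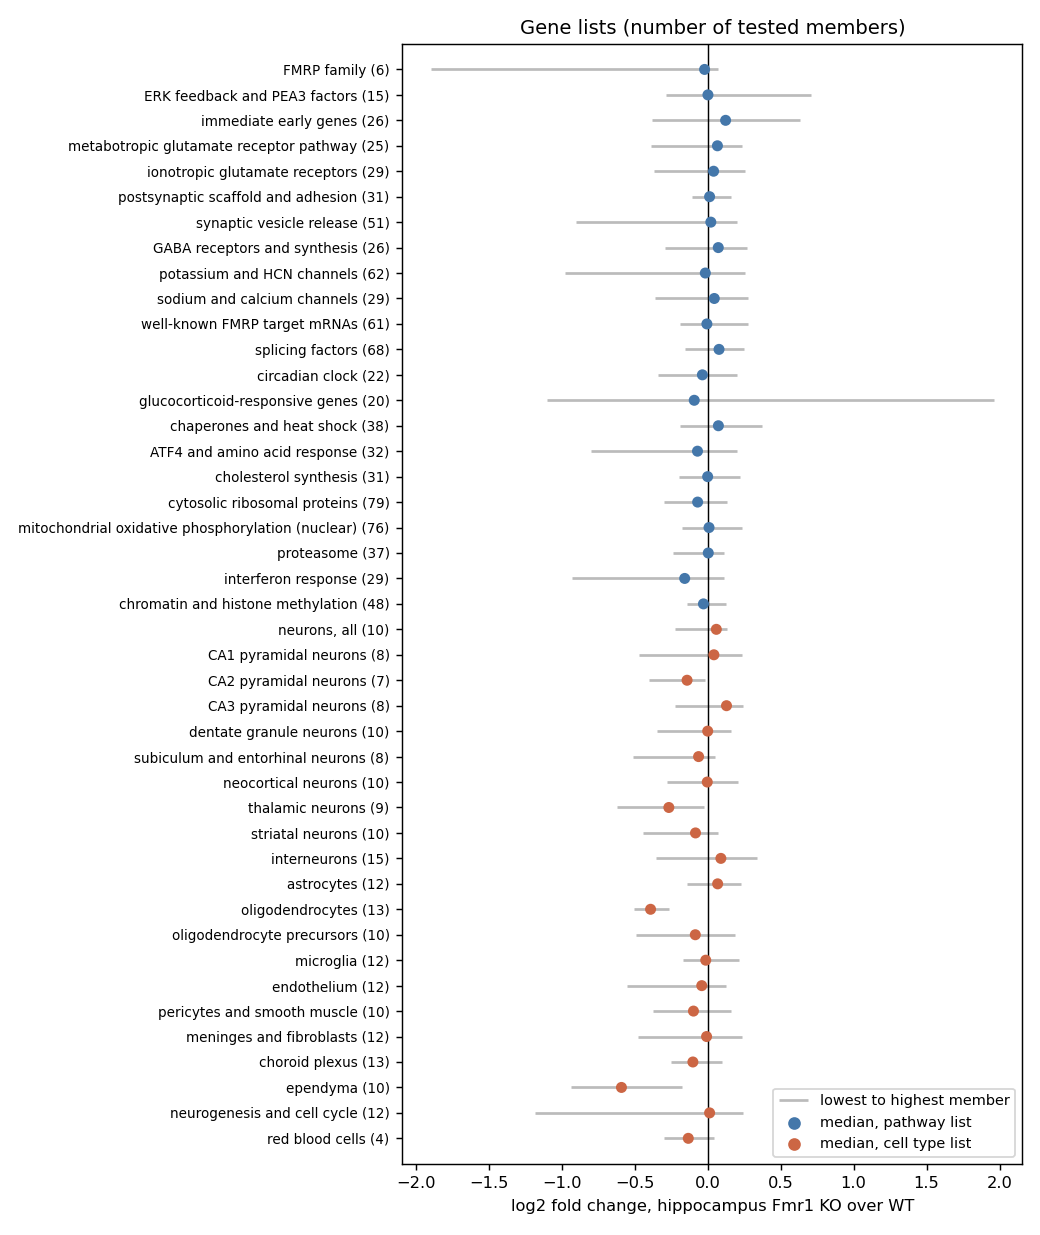
Median (points) and lowest to highest member (grey bars) of the log2 fold change of KO over WT in hippocampus for each pathway and cell type list, with the number of tested members in brackets. The oligodendrocyte bar lies wholly below 0 (-0.50 to -0.27), as do the ependymal (-0.94 to -0.18), thalamic (-0.62 to -0.02) and CA2 bars (-0.40 to -0.02). Most other medians lie close to the all-gene median of 0.00.

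The largest source of variance in these libraries was not genotype. The first principal component of log2 CPM held 62.5% of the variance and scored -32.2 in WT 1 and -36.6 in KO 2 against 21.3 in WT 2, 18.1 in WT 3, 5.22 in KO 1 and 24.2 in KO 3. The second component held 14.9% and was negative in all WT and positive in all KO libraries. Since the sides were found from these values, they are described and not tested. Both libraries lay below the other 4 for 1566 genes (10.6% of tested genes) and above them for 1281 (8.63%).

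The genes that set WT 1 and KO 2 apart were those of the choroid plexus. All 13 tested members of the choroid plexus list were below the other libraries in both. Their summed level was 240 CPM in WT 1 and 194 CPM in KO 2, against 8401 in WT 2, 6203 in WT 3, 4200 in KO 1 and 9360 in KO 3, a ratio of 32.5 between the sides. Ttr, transthyretin, the carrier of thyroid hormone in cerebrospinal fluid, was at 7.21 CPM in the WT 1 library, at 10.7 CPM in KO 2 and between 1850 and 4226 CPM in the others. Kcne2, a potassium channel subunit of that epithelium, was at 0 in WT 1 and 0.0358 CPM in KO 2, against 16.9 to 42.9 CPM. Other genes of large loading were Slc4a5, Tmem72, Aqp1, Kcnj13, Clic6, F5, Prr32 and Folr1. Aqp1, a water channel, measured 0.107 and 0.286 CPM against 22.6 to 41.6 CPM.

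Of 12 markers of meninges 4 were below the other libraries in both. Their sums were 179 and 211 CPM in WT 1 and KO 2 against 322 to 495 CPM, of which the growth factor gene Igf2 made 48.0 and 67.7 CPM against 179 to 331 CPM. Without Igf2 the sums overlapped, at 131 and 144 CPM against 122 to 169 CPM. Of 10 ependymal markers 4 were below in both, and the sums overlapped, since KO 1 (33.6 CPM) lay below WT 1 (41.5 CPM). On the higher side the differences were small. Vwc2l, Plxdc1, Cbln4 and Htr7 had the largest loadings there, with the other libraries at 0.68 to 0.71 of the level in WT 1 and KO 2. The values of Vwc2l, Plxdc1 and Cbln4 overlapped between the sides (for Vwc2l 16.6 and 8.37 CPM against 5.50 to 13.8 CPM), and those of Htr7 did not, at 13.2 and 12.7 CPM against 8.06 to 10.3 CPM. Pan-neuronal genes had a ratio of 0.92 and interneuron genes one of 0.91. The first components of cortex and cerebellum did not set WT 1 and KO 2 of those regions apart from the rest. Between genotypes the smallest adjusted p of the choroid plexus genes was 0.962, and 11 of the 13 had negative log2 fold changes.

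**Figure D4:**
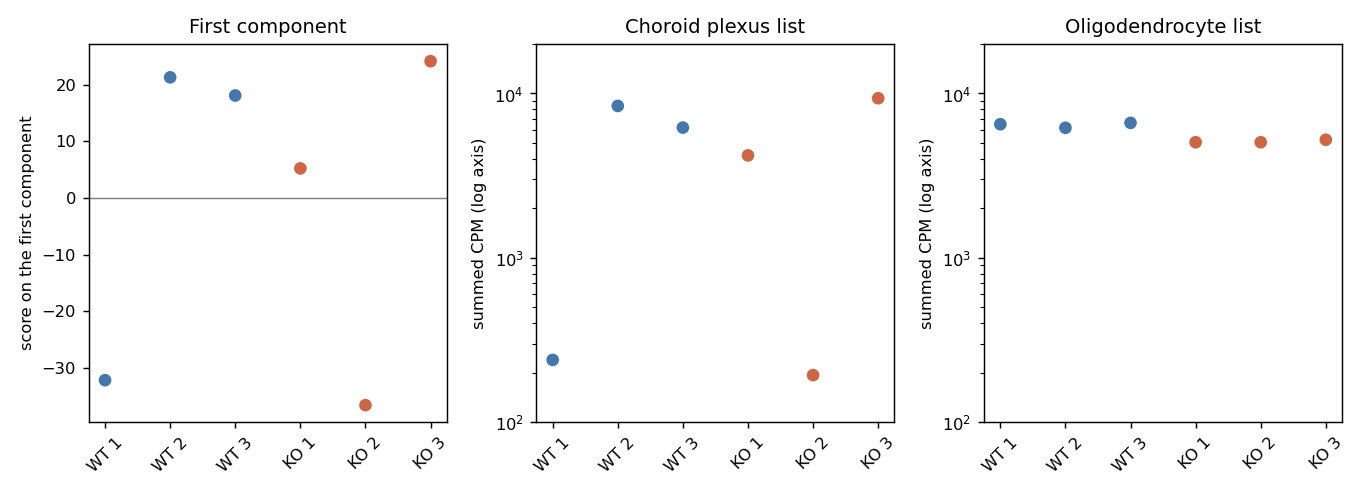
Score on the first component, summed CPM of the choroid plexus list and summed CPM of the oligodendrocyte list (both on log axes) in each hippocampus library, WT and KO in separate colours. WT 1 and KO 2 are low in the first panels (240 and 194 CPM of choroid plexus genes against 4200 to 9360 CPM), whereas the oligodendrocyte sums follow genotype.

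Exon choice was compared from the junction reads of the deposited rMATS tables, which give reads for 3 libraries in each of a first and a second set. The tables do not name the genotype of the sets, so differences are given as set 1 minus set 2 and no genotype is assigned to either set here. Of 8143 skipped exons, 4622 were covered by 20 or more junction reads per library, on average, in both sets. None was called on re-test at an adjusted p under 0.05 and a difference of at least 10 percentage points, the smallest adjusted p was 0.548, and 121 (2.62%) had an unadjusted p under 0.05. The median size of the difference was 1.39 percentage points. The other types also gave 0 calls. Of 339 alternative 3′ sites 11 (3.24%) had an unadjusted p under 0.05, of 197 alternative 5′ sites 12 (6.09%) and of 414 mutually exclusive exons 30 (7.25%).

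The 3 skipped exons and the pair of exclusive exons of smallest p on re-test are shown, although none passed it. The differences of the 3 skipped exons were also under 10 percentage points. Sequences are from the transcripts of GRCm38, on the strand of the gene.
Desi1 skipped exon (chr15:82002541-82002610, minus strand): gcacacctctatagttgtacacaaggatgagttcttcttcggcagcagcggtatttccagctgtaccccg
Gripap1 skipped exon (chrX:7800536-7800583, plus strand): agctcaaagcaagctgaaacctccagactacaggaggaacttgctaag
Ndrg2 skipped exon (chr14:51911086-51911127, minus strand): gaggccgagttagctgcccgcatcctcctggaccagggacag
Casc4 first exclusive exon (chr2:121906698-121906778, plus strand): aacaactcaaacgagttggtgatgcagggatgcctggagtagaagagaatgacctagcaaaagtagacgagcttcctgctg
Casc4 second exclusive exon (chr2:121910799-121910897, plus strand): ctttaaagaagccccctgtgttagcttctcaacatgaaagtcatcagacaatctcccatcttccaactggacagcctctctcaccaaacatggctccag
The exons of Gripap1 (48 bases), Ndrg2 (42 bases) and Casc4 (81 and 99 bases) are whole multiples of 3 bases and that of Desi1 (70 bases) is not.

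Inclusion of the Desi1 exon, in a gene for a deSUMOylating peptidase, was 100%, 98.7% and 100% in set 1 and 93.6%, 92.9% and 91.4% in set 2, from 121 to 222 reads per library (adjusted p = 0.548). Inclusion of the Gripap1 exon, in a gene for an endosomal protein of dendrites, was 88.7%, 96.4% and 86.9% in set 1 and 100% in each library of set 2. For Ndrg2, a gene with high levels in astrocytes, it was 17.2%, 12.8% and 17.2% in set 1 and 24.6%, 20.3% and 23.8% in set 2. The sets did not overlap for these 3 exons, which were chosen for their small p. The first exclusive exon of Casc4 was used at 44.2%, 43.7% and 39.6% in set 1 and 23.3%, 26.5% and 29.1% in set 2, a difference of 16.2 percentage points (adjusted p = 0.347). In the authors' deposited table the false discovery rate of this Casc4 event was 0.0315.

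The authors' deposited table listed 19 skipped exons at a false discovery rate under 0.05 and a difference of at least 10 percentage points (0.233% of 8143). Their median coverage was 4.17 junction reads per library, and only those of Fut8 and Angel2 reached the coverage needed for the re-test. Fut8 adds core fucose to glycoproteins. Inclusion of its 93-base exon was 93.1%, 100% and 100% in set 1, from 28, 30 and 18 reads, and 85.7%, 69.2% and 82.9% in set 2, from 13, 22 and 32 reads. The sets did not overlap, but these percentages rest on few reads. By the same rule, the authors' deposited table listed 10 alternative 3′ sites (0.959%), 12 alternative 5′ sites (1.7%), 7 mutually exclusive exons (1.14%) and 0 of 5 retained introns. Among these Srrm1, a splicing coactivator, and Casc4 had enough reads.

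Fmr1 itself had an event in each of 2 types, both below the coverage minimum. Its 63-base skipped exon (chrX:68705861-68705923) had 5, 4 and 4 junction reads in set 1 and 14, 22 and 24 in set 2, with inclusion of 25%, 100% and 60% against 47.4%, 41.9% and 50%. The sets overlapped. Its alternative 3′ site had 4, 3 and 4 reads in set 1 and 12, 13 and 16 in set 2, and in the authors' deposited table its false discovery rate was 0.0216. Genes of the expression calls held 23 tested skipped exons in 8 genes, of which 1 had an unadjusted p under 0.05, and the 11 tested exons in 3 genes of the oligodendrocyte list had 0. Of 112 tested exons in FMRP target messenger RNAs 2 were at that level, and of 80 in splicing factor genes 2.

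**Figure D5:**
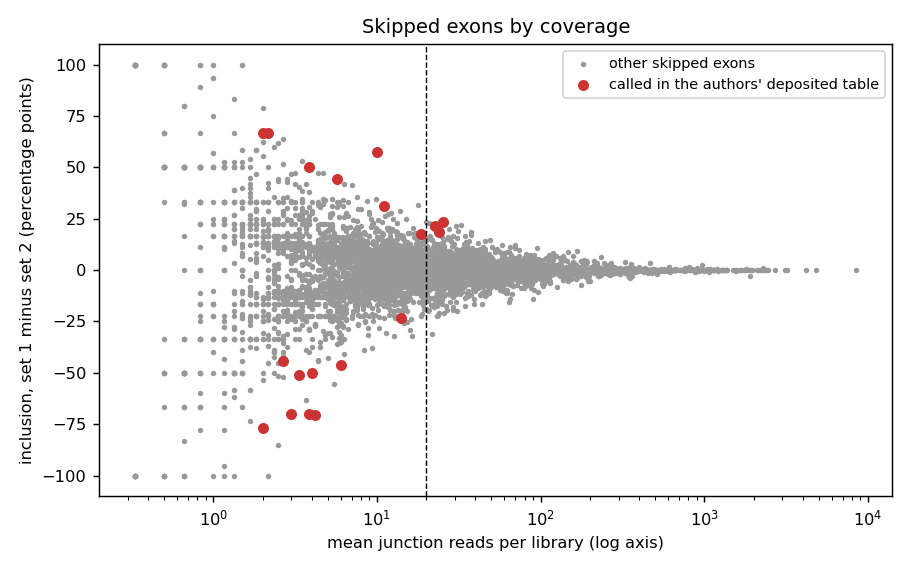
Difference in inclusion (set 1 minus set 2, percentage points) of each skipped exon against its mean junction reads per library (log axis). The dashed line marks a mean of 20 reads, and red points are the 19 exons called in the authors' deposited table, most of which lie left of the line.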

How the data were processed

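RNA was measured by poly(A) sequencing in 6 hippocampus libraries (3 WT, 3 Fmr1 KO), with 12 cortex and cerebellum libraries for comparison. The deposited brain table holds raw counts and TPM per gene; the submitters' processing notes name CASAVA, FastQC 0.11.8, Trimmomatic 0.39, Bowtie2 2.3.5, STAR 2.6.1, RSEM 1.3.1, DESeq2 1.16.1 and the builds GRCm38 and mm10, with no order. The deposited comparison table gives log2 fold changes and p-values by the authors. The deposited rMATS tables give junction read counts, inclusion levels, form lengths and p-values per event, per the file headers.

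Counts were tested with edgeR 4.0.16 (R 4.3.3; TMM factors, filterByExpr, quasi-likelihood test, Benjamini-Hochberg adjustment over all tested genes, called at 0.05). Differences between regions are interaction terms in a fit of all 18 brain libraries. DESeq2 1.42.0 was the alternative. CPM use the TMM factors. Those of single genes were scaled over the tested genes and list sums over all genes of the table, so the 2 scales differ slightly. Junction reads were tested per event with a quasi-binomial model whose dispersion was moderated with limma 3.58.1 and not allowed under 1. The moderation departs from its first design: its prior came from events with at least 10 reads of each form in each set, a change made after first output on these data, because the first design recovered few of the changes in the simulated test data. Events whose reads did not give the deposited inclusion levels within 0.002, some with cells altered by a spreadsheet, were left out: 2 of 1045 alternative 3′ sites, 2 of 708 alternative 5′ sites and 7 of 619 mutually exclusive exons.

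The members and gene lists were chosen with earlier results of these data known. Named were Fmr1, the first 25 called genes by size of change with a mean of at least 50 counts, 3 members per pathway list by p (called members first), the 2 most abundant per cell type list, 10 genes per side of the library split, and at least 3 events per type by p; other names were chosen after their values were seen. On simulated data of the hippocampus comparison 14747 genes were tested, changed and unchanged. The changed genes were drawn from those with a mean of at least 50 counts. There edgeR recovered 6 of 50 genes changed 1.25-fold, 27 of 50 at 1.5-fold, 45 of 50 at 2-fold and 50 of 50 at 4-fold, and called 7 unchanged genes. The exon model, on 4622 simulated skipped exons, recovered 46 of 100 changes of 0.2 and 100 of 100 of 0.4. The changed exons were drawn from those of intermediate inclusion, so recovery may differ for other exons. The alternatives were other normalization, filter, tool, replicate block, split covariate and left-out libraries. The closing part gives their effect. The brain table holds 12 further columns of per-sample values, which were not used. The values of 1 gene of the oligodendrocyte list are not reported singly here.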

Additional observations from a re-analysis of the deposited data

Results flagged for a closer look

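Rassf2, a Ras-association domain protein, was the only gene whose genotype effect differed between hippocampus and cerebellum in the test of that difference (0.00645% of genes tested, with 5.31% at an unadjusted p under 0.05). The difference of the log2 fold changes, hippocampus minus cerebellum, was -0.40 ± 0.06 (edgeR interaction term, adjusted p = 0.0392). It was not called when any 1 of the 6 hippocampus libraries (WT 1, WT 2, WT 3, KO 1, KO 2, KO 3) was left out, where 0 genes were called each time, or with the replicate block. Against cortex 0 genes differed after adjustment, and 1561 (10.1%) did at an unadjusted p under 0.05.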

How the results depend on the processing

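The Fmr1 log2 fold change kept its direction and call in every alternative, between -1.94 and -1.86 with 1 library left out. The number of called genes was 33 with RLE factors, 38 with no low-count filter, 32 in 1 fit of all 18 brain libraries (10 of them among the 31), 259 with DESeq2, 107 with the split covariate, and 1 with the replicate block or without WT 1 and KO 2 together. It ranged from 1 to 21 with 1 library left out (21 without KO 3). The cause of these changes was not tested, beyond fewer libraries or degrees of freedom. The deviations of same-numbered WT and KO libraries correlated at -0.29, -0.63 and 0.57, and those of WT 1 and KO 2 at 0.76. These correlations also carry the library split, so they cannot show whether replicate numbers mark pairs. With the replicate block the difference between hippocampus and cerebellum gave 0 genes in place of 1, and 0 with any hippocampus library left out. The share of variance of the first component was 62.5% with RLE factors and 62.6% with a prior count of 5, but 75.4% over genes of at least 10 CPM and 81.4% over the 500 most variable genes. No exon was called under any alternative run, against 19 skipped exons and 29 other events by the authors' deposited false discovery rate. The replicate block, the split covariate and leaving out WT 1 and KO 2 were not run for exons, because the tables do not name the libraries of the 2 sets.

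Over all 152 named genes, including those of the library split whose fold changes are not given above, there were 80 sign changes in 33 genes and none in a called gene: 57 with 1 library left out, 10 without WT 1 and KO 2, 9 with the replicate block and 4 with the split covariate. Of the fold changes between genotypes in hippocampus given above only that of Flt1 changed sign, with a log2 fold change of Flt1 from -0.068 (without WT 1) to 0.093 (without WT 2). Of 559 list medians recomputed, 22 moved by more than the spread between libraries, 7 of them without WT 1 and KO 2. With 3 libraries per genotype, the smallest changes simulated were mostly missed.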

Other observations

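Cholesterol synthesis genes, on which myelin also draws, had a median log2 fold change of 0.00 over 31 tested genes, with 4 higher and 3 lower at an unadjusted p under 0.05 and 0 called by edgeR (1 by DESeq2). Idi1, an isomerase of that pathway, was at 0.22 ± 0.06 (adjusted p = 0.213). The nuclear genes of mitochondrial oxidative phosphorylation had a median of 0.01 over 76 genes, and those for chromatin and histone methylation one of -0.03 over 48, with 32 negative. Dcx, a microtubule protein of newborn granule neurons, measured 31.4, 29.1 and 27.7 CPM in WT and 34.4, 34.2 and 35.5 CPM in KO, without overlap (0.24 ± 0.06, adjusted p = 0.216).

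In 4 equal classes of genes from short to long genomic length, the median log2 fold changes were -0.00, -0.00, 0.00 and 0.00 in hippocampus, -0.04, -0.01, 0.02 and 0.02 in cortex and 0.03, 0.01, -0.00 and -0.01 in cerebellum, so the order in cerebellum was opposite to that in cortex. These are descriptions over genes, which are not independent replicates.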
